A study of Mus musculus with 8 samples.

Results

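The receptors and soluble binding proteins that take up or bind modified lipoproteins were examined in RNA-seq of the mouse aorta. They were chosen by gene symbol and not by their measured values, although earlier results of these data were known. All 10 members (Cd36, Msr1, Scarb1, Olr1, Marco, Colec12, Stab1, Stab2, Scarf1 and Cd5l) were found among the 48607 loci of the table, and where a symbol named several loci the one with the most counts was used. Whole aortas were taken after 12 weeks on Western diet. By title, 5 libraries were ApoE-/- and 3 were NPRC-/-ApoE-/-, so every mouse lacked ApoE and the groups differed in NPRC, the natriuretic peptide clearance receptor encoded by Npr3. NPRC was inactivated in all tissues of C57BL/6 mice with a CRISPR frameshift in the first exon, and the controls were littermates. An age and male sex are stated for purchased ApoE-/- mice but not for the sequenced littermates. The genotype entered separately for each sample differed from the title for 4 of the 8 libraries, namely those titled ApoE-/- 4 and 5 (entered as NPRC-/-ApoE-/-) and NPRC-/-ApoE-/- 1 and 2 (entered as ApoE-/-). The groups below are those of the titles, and the fold change of each tested member is also given by genotype entry. The methods describe more NPRC-/-ApoE-/- aortas than the 3 libraries analysed here.

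Scavenger receptors bind oxidized or acetylated low-density lipoprotein, and they are not shut down when the cell fills with cholesterol. In the arterial wall this uptake turns macrophages into lipid-laden foam cells, while endothelial members of the family clear or carry the same particles. The classes share ligands rather than structure, and include collagen-like trimers (class A), loops anchored at both ends in the membrane (class B), lectins (class E), epidermal growth factor-like repeats (class F) and giant fasciclin-domain proteins (class H). Whether lesional uptake genes were lower in aortas without NPRC is the question that these libraries address for this family.

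Total counts were between 62969165 and 86693276 per library. The level of Npr3 was 0.62 to 1.69 FPKM (fragments scaled to transcript length and sequencing depth) across the ApoE-/- group. It was 1.13 to 1.39 FPKM across the NPRC-/-ApoE-/- group, which overlapped. A frameshift need not lower the transcript, and the overlap does not show which label is right where title and genotype entry differ. Its cause was not tested. The methods describe aortas of several mice per genotype, but the labels tie no library to a mouse, so p-values measure only the spread between these libraries. The endothelial and smooth muscle markers that define an aorta were present, with mean levels of 6.06 to 6.34 and 8.51 to 9.78 log2 CPM (counts scaled to library size) over 10 genes each, and 9 of the 10 smooth muscle markers were higher by title with an unadjusted p under 0.05, their level not overlapping between the groups (8.51 to 8.93 against 8.96 to 9.78). Of all 20506 loci tested, 6.51% were higher by title at this threshold. By genotype entry 0 of these 10 markers passed.

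The mean FPKM was lower in the libraries titled NPRC-/-ApoE-/- for 9 of the 10 members and higher for 1, Scarf1, and 2 of the lower ones, Cd5l and Stab1, passed the test. The 9 include Cd36, at 79.5 against 79.9 FPKM, and Marco, which was nearly confined to 1 library. The share of all loci with a lower mean FPKM was not computed. Of the 10 members, 8 had at least 1 FPKM in at least 3 libraries and were tested. The log2 fold change was below 0 for 6 of these 8 and above 0 for 2, Cd36 and Scarf1. Cd5l and Stab1 were lower with an unadjusted p-value under 0.05 (edgeR's quasi-likelihood test), 0 members were higher and 6 did not pass. Among all 20506 loci tested, 13.6% passed in either direction, 7.13% lower and 6.51% higher. Of the members only Cd5l passed with a fold change above 2 or below 0.5, as did 3.47% of all loci, with 2.39% lower. The FPKM of 1 tested member, Cd5l, did not overlap between the groups, as for 7.25% of all loci. With Benjamini-Hochberg adjustment over all loci, 0 members and 0.0% of all loci had an adjusted p under 0.05 in edgeR, while DESeq2 gave an adjusted p under 0.05 for 1 member (Cd5l) and 3.17% of loci, and limma for 0 members. The count of members with an unadjusted p under 0.05 was 1 without any one of ApoE-/- 2, 3 and 4 and NPRC-/-ApoE-/- 2 and 3, and 4 without NPRC-/-ApoE-/- 1. The median log2 fold change of the 8 tested members was −0.32, beside −0.01 over all loci. By genotype entry, 0 of the 8 passed at an unadjusted p under 0.05, where 1.31% of all loci did (0.463% when a fold change above 2 or below 0.5 was also asked), and their median was −0.09.

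**Figure D1:**
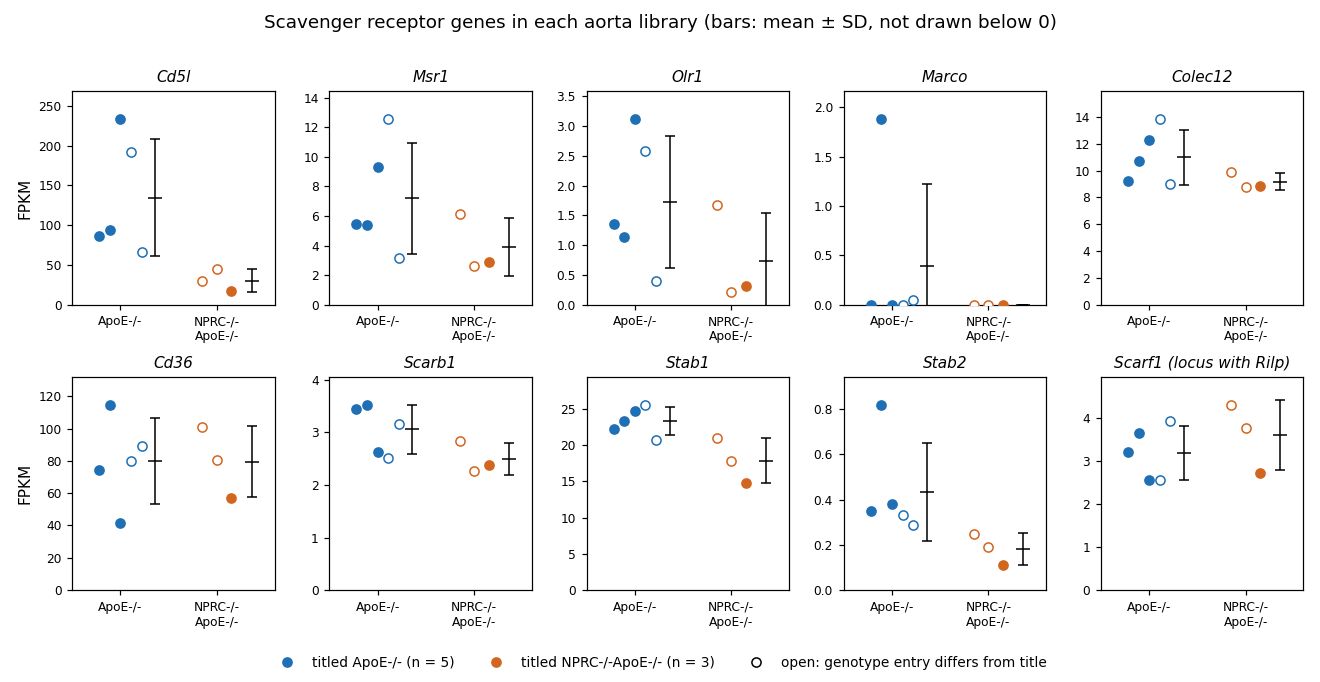
FPKM (vertical axes, each from 0) of the 10 members in each library, in replicate order from left to right within a titled group, with the mean ± SD of the group beside the points; open points mark libraries whose genotype entry differs from the title. Cd5l (66.6 to 233 against 16.5 to 44.8 FPKM) and Stab2 (0.29 to 0.82 against 0.11 to 0.25 FPKM) did not overlap between the titled groups, the Cd36 values of the NPRC-/-ApoE-/- libraries lay within the range of the others, and Marco was above 0.05 FPKM in 1 library.

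Cd5l, a soluble protein with scavenger receptor cysteine-rich domains that macrophages secrete and that is known to keep lesional macrophages alive, had the highest mean level of the family (95.4 FPKM). Its locus lies on the plus strand of chromosome 3 from 87327093 to 87371073 in GRCm38, and starts upstream of the annotated gene, which runs from 87357881 (GENCODE M21, ENSMUSG00000015854). The level of Cd5l was 86.5, 94.4, 233, 192 and 66.6 FPKM in ApoE-/- 1 to 5, and 29.0, 44.8 and 16.5 FPKM in NPRC-/-ApoE-/- 1 to 3. All 3 libraries of the second group were thus below all 5 of the first, and ApoE-/- 3 and 4 stood above the others. The means were 135 ± 73.5 (SD, n = 5) and 30.1 ± 14.2 (SD, n = 3) FPKM. The log2 fold change was −2.19 (standard error 0.54, unadjusted p = 0.00295, adjusted p = 0.255, edgeR), a ratio of 0.219. Over the alternatives the adjusted p ranged from 0.00102, with DESeq2, to 1, by genotype entry. By genotype entry the groups overlapped, at 29.0 to 233 and 16.5 to 192 FPKM, with a log2 fold change of −0.08 (standard error 0.84). A two-sided exact permutation test of the log2 CPM values gave p = 0.036 by title, the smallest that 5 libraries against 3 can give, and 0.75 by entry.

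Marker genes of macrophages and of fibroblasts were also lower by title. Of 10 macrophage markers (Cd68, Adgre1, Csf1r, Lyz2, Itgam, C1qa, C1qb, C1qc, Fcgr1 and Aif1), all tested, 6 were lower by title with an unadjusted p under 0.05, 0 were higher, and none was at 0 FPKM in every library. Among the 6, Aif1 reached 1 FPKM only in libraries titled ApoE-/- (0.90 to 2.33 FPKM against 0.16 to 0.78 FPKM). It therefore entered the test through the group where it was high. Cd68 shared its locus with neighbouring genes. Of all loci tested, 7.13% were lower by title at this threshold. By genotype entry 0 of the 10 macrophage markers passed. Their mean level was 5.99 to 7.54 log2 CPM across the ApoE-/- group against 5.14 to 6.43 log2 CPM across the NPRC-/-ApoE-/- group (two-sided exact permutation test, p = 0.071 by title and 0.61 by entry). Of 10 fibroblast markers, 2 were lower with an unadjusted p under 0.05, 0 were higher and 8 did not pass, with a mean level of 8.60 to 9.50 against 7.95 to 8.73 log2 CPM (exact permutation p = 0.071 by title and 0.82 by entry), and by genotype entry 0 passed. Over the 8 libraries, Pearson's r with Cd5l was 0.87 for the macrophage and 0.76 for the fibroblast marker level, a description, and the part of either in the Cd5l result was not tested. Relative to the macrophage marker mean in the same library, Cd5l was 1.07 to 1.84 log2 units higher across the ApoE-/- group, and between 0.17 lower and 1.61 higher across the NPRC-/-ApoE-/- group. On this relative scale, added after the values were seen and computed by title only, the groups overlapped and their means differed by −0.86 (exact permutation p = 0.143), against −2.08 for the level of Cd5l itself. The library titled NPRC-/-ApoE-/- 1, entered as ApoE-/-, had a macrophage marker level (6.43 log2 CPM) close to that of ApoE-/- 1 (6.43 log2 CPM). Cd5l was 29.0 FPKM in the first and 86.5 FPKM in the second, a pair picked after the values were seen. On the relative scale, NPRC-/-ApoE-/- 2 (1.61) lay within the range of the ApoE-/- group. In whole aortas, fewer cells of a type and less RNA per cell cannot be told apart.

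The class A receptors carry collagen-like stalks and are best known from the macrophage surface. Msr1, the classical receptor for acetylated and oxidized LDL (chromosome 8, 39581685 to 39642673, minus strand), had 5.48, 5.38, 9.34, 12.6 and 3.17 FPKM in ApoE-/- 1 to 5, and 6.17, 2.64 and 2.89 FPKM in NPRC-/-ApoE-/- 1 to 3. The groups overlapped, because ApoE-/- 5 was low and NPRC-/-ApoE-/- 1 was above ApoE-/- 1 and 2. The log2 fold change of Msr1 was −0.90 by title (standard error 0.49, unadjusted p = 0.101, adjusted p = 0.443, edgeR) and 0.14 by genotype entry (standard error 0.56). Over the 8 fits with 1 library left out it was −1.37 to −0.56 by title (unadjusted p = 0.032 to 0.2735, edgeR). The p was under 0.05 only without NPRC-/-ApoE-/- 1 (−1.37, unadjusted p = 0.0382) or without ApoE-/- 5 (−1.10, unadjusted p = 0.032). Over the 8 libraries, Pearson's r with Msr1 was 0.92 for the macrophage and 0.85 for the fibroblast marker level, a description. Msr1 and the macrophage markers were highest in ApoE-/- 3 and 4, where the marker level was 7.54 and 7.38 log2 CPM.

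Marco, a relative of Msr1 on the macrophages of lymph nodes and spleen, was nearly confined to 1 library (chromosome 1, 120474538 to 120505024, minus strand). It had 291 counts (1.88 FPKM) in ApoE-/- 2, 9 counts in ApoE-/- 5 and 0 counts in each of the other 6 libraries, where a count of 0 allows up to 3 counts, for counting error only. It was outside the filter and no fold change is given. Counts of the B cell gene Ms4a1 were also highest in ApoE-/- 2, with 878 counts against 0 to 156 counts in the other libraries. The mean level of 8 B and T cell markers was 2.48 log2 CPM there and −1.43 to 0.94 log2 CPM elsewhere, and its part in the Marco counts was not tested.

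Colec12, a collectin of vascular and stromal cells that also binds oxidized LDL, differed little between libraries. Its locus on chromosome 18 (9707595 to 9882644, plus strand) had 9.03 to 13.8 FPKM across the ApoE-/- group against 8.77 to 9.88 FPKM across the NPRC-/-ApoE-/- group. The groups overlapped, with a log2 fold change of −0.26 by title (standard error 0.20, adjusted p = 0.58, edgeR) and 0.09 by genotype entry. A second assembled locus that lies inside the gene and carries its name held 48.9% as many counts, and was not added.

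Of the class B receptors, Cd36 takes up oxidized LDL in macrophages and long-chain fatty acids in adipocytes, muscle and capillary endothelium. Its locus is on chromosome 5 (17781690 to 17888747, minus strand). Its level was 74.3, 115, 41.8, 79.7 and 89.2 FPKM in ApoE-/- 1 to 5, and 101, 80.7 and 56.9 FPKM in NPRC-/-ApoE-/- 1 to 3. The NPRC-/-ApoE-/- values lay within the range of the ApoE-/- values, and the means were 79.9 ± 26.4 (SD, n = 5) FPKM in ApoE-/- and 79.5 ± 22.02 (SD, n = 3) FPKM in NPRC-/-ApoE-/-. The log2 fold change of Cd36 was 0.02 by title (standard error 0.28, adjusted p = 0.985, edgeR) and −0.10 by genotype entry, and it changed sign with the library left out, at −0.17 to 0.19. The library with the least Cd36, ApoE-/- 3, had the most Cd5l. The mean level of 10 white fat markers was also lowest in ApoE-/- 3 (5.13 log2 CPM) and highest in ApoE-/- 2 (7.05 log2 CPM), as for Cd36. Over the 8 libraries, Pearson's r was 0.98 between Cd36 and these fat markers and −0.07 between Cd36 and the macrophage markers, given as a description of libraries that also share their depth and composition.

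Scarb1, the receptor that takes cholesteryl esters from high-density lipoprotein (chromosome 5, 125277087 to 125341094, minus strand), had a narrow range of values. It had 3.45, 3.53, 2.62, 2.52 and 3.17 FPKM in ApoE-/- 1 to 5, and 2.83, 2.26 and 2.39 FPKM in NPRC-/-ApoE-/- 1 to 3. Its highest value was 1.56 times its lowest, and the groups overlapped (exact permutation p = 0.071 by title, as for Stab1). The log2 fold change was −0.27 by title (standard error 0.13, unadjusted p = 0.0797, adjusted p = 0.415, edgeR) and −0.10 by genotype entry. The adrenal cortex is the tissue best known for Scarb1. Of the 5 adrenal markers measured, 4 stayed under 1 FPKM in all libraries, and Star had 1.16 to 1.46 FPKM. Pearson's r with Scarb1 was 0.92 for the endothelial and 0.62 for the adrenal marker level over 8 libraries, a description. The part of either tissue was not tested.

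Olr1, known as LOX-1, is a class E lectin and the main receptor for oxidized LDL on endothelial cells, which activated macrophages and smooth muscle cells also make (chromosome 6, 129485244 to 129507165, minus strand). Its level was 1.36, 1.14, 3.12, 2.59 and 0.40 FPKM in ApoE-/- 1 to 5, and 1.67, 0.21 and 0.31 FPKM in NPRC-/-ApoE-/- 1 to 3. The groups overlapped at both ends, and the order of the libraries resembled that of Msr1 (Pearson's r = 0.96 over 8 libraries, a description), with an r of 0.94 to the macrophage and 0.90 to the fibroblast marker level. The log2 fold change of Olr1 was −1.28 by title (standard error 0.83, unadjusted p = 0.158, adjusted p = 0.512, edgeR) and −0.41 by genotype entry. Over the 8 fits with 1 library left out it was −2.73 to −0.82 by title (unadjusted p = 0.0117 to 0.368, edgeR). The p was under 0.05 only without the library titled NPRC-/-ApoE-/- 1, where the log2 fold change was −2.73. The highest value was 14.9 times the lowest, the widest range of the members above 0 in all libraries, although Cd5l was close to it at 14.1 times.

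The class H receptors, the stabilins, are giant proteins of macrophages and sinusoidal endothelium that clear modified lipoproteins and hyaluronan. Stab1 (chromosome 14, 31139013 to 31168595, minus strand) had 22.2, 23.4, 24.7, 25.6 and 20.7 FPKM in ApoE-/- 1 to 5, and 21.0, 17.7 and 14.7 FPKM in NPRC-/-ApoE-/- 1 to 3. The groups touched only where NPRC-/-ApoE-/- 1 was above ApoE-/- 5. A two-sided exact permutation test of the log2 CPM values gave p = 0.071 by title. The log2 fold change of Stab1 was −0.38 (standard error 0.16, unadjusted p = 0.0427, adjusted p = 0.351, edgeR) by title and −0.07 by genotype entry. The call was lost without any one of the libraries titled ApoE-/- 2, 3 and 4 and NPRC-/-ApoE-/- 2 and 3 (unadjusted p = 0.0597 to 0.162), and without a filter on low values (unadjusted p = 0.0508). Stab1 had a Pearson's r of 0.98 to the macrophage and 0.87 to the fibroblast marker level over 8 libraries, a description, and relative to the macrophage mean it was 0.85 log2 units higher in the libraries titled NPRC-/-ApoE-/- (on this added scale, exact permutation p = 0.107, groups overlapping). Stab2, the stabilin of liver, spleen and lymph node sinuses (chromosome 10, 86841198 to 87008025, minus strand), was under 1 FPKM in all libraries and outside the filter. It had 0.35, 0.82, 0.38, 0.33 and 0.29 FPKM in ApoE-/- 1 to 5, and 0.25, 0.19 and 0.11 FPKM in NPRC-/-ApoE-/- 1 to 3, without overlap, as was also the case in this direction for 4.37% of the tested loci. From 103 to 577 counts per library lay behind these values. Without a filter on low values, the log2 fold change of Stab2 was −1.21 (standard error 0.40, unadjusted p = 0.0121, adjusted p = 0.374, edgeR) by title and −0.67 by genotype entry. The highest value of Stab2 was in ApoE-/- 2, the library that also held Marco.

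Scarf1, a class F receptor through which endothelial cells bind acetylated LDL, shared its assembled locus with the neighbouring gene Rilp, so its own counts were not known (chromosome 11, 75510094 to 75526582, plus strand). The shared locus had 2.55 to 3.93 FPKM across the ApoE-/- group against 2.71 to 4.31 FPKM across the NPRC-/-ApoE-/- group, which overlapped. Its log2 fold change was 0.20 by title (standard error 0.17, adjusted p = 0.62, edgeR) and −0.17 by genotype entry. Of 10 endothelial markers, 0 passed an unadjusted p of 0.05 in either direction by title or by entry, although by title their mean level was 6.21 to 6.34 log2 CPM across the ApoE-/- group against 6.06 to 6.18 log2 CPM across the NPRC-/-ApoE-/- group.

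**Figure D2:**
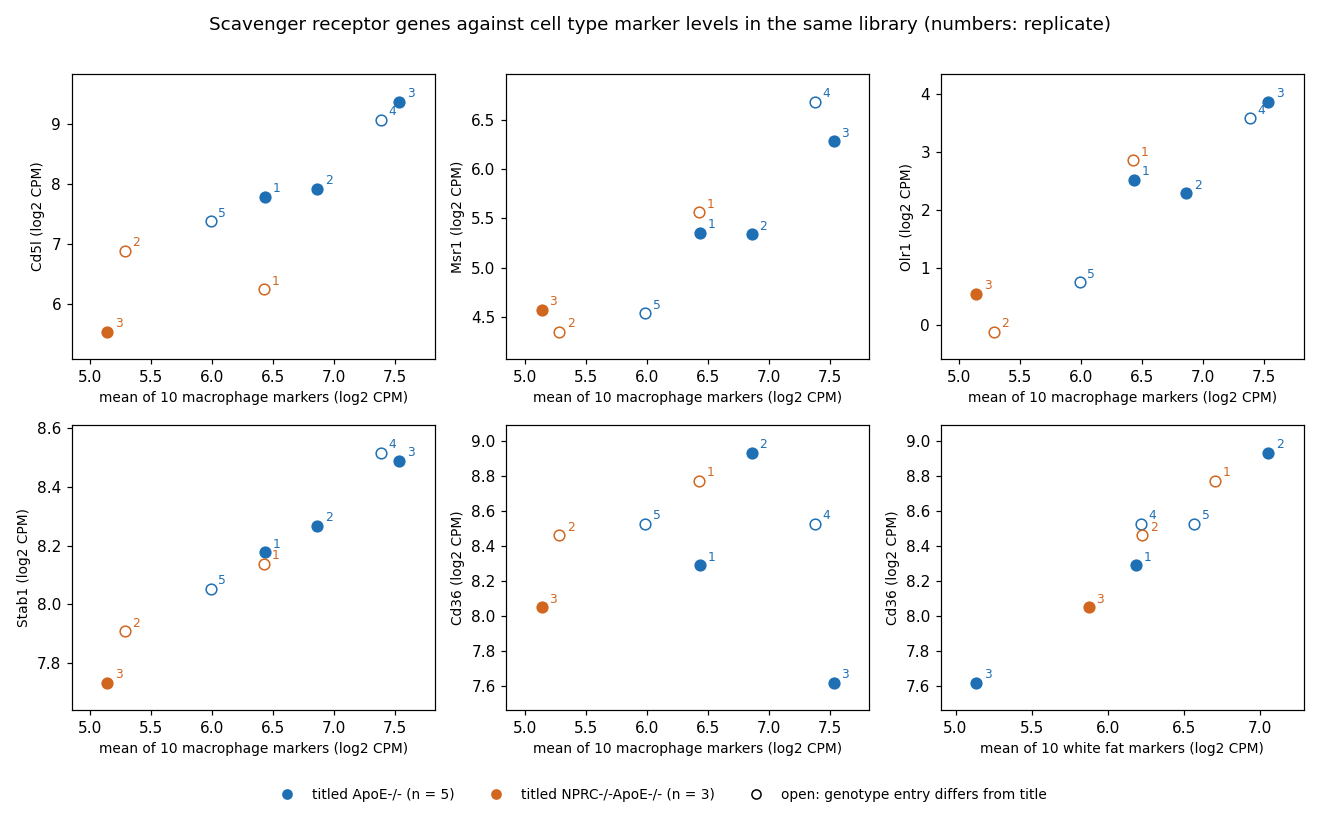
Level of a member (vertical axis, log2 CPM) against the mean of 10 macrophage or 10 white fat markers (horizontal axis, log2 CPM) in the same library, with the replicate number beside each point; open points mark libraries whose genotype entry differs from the title. Stab1 lies along the macrophage markers with little scatter, NPRC-/-ApoE-/- 1 has the least Cd5l for its macrophage marker level, and Cd36 follows the white fat markers and not the macrophage markers.

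On the FPKM scale, which allows for length, the order of the members differed between libraries at the top. Cd5l was first and Cd36 second in ApoE-/- 1, 3 and 4, with 1.17, 5.58 and 2.41 times as many FPKM of Cd5l as of Cd36. Cd36 was first in ApoE-/- 2 and 5, where the ratio was 0.82 and 0.75, and in all 3 libraries titled NPRC-/-ApoE-/-, where it was 0.29, 0.55 and 0.29. Below both, Stab1 and then Colec12 came next in every library, with ranges that did not overlap (14.7 to 25.6 against 8.77 to 13.8 FPKM). Msr1, Scarb1, the Scarf1 locus and Olr1 exchanged places, and their ranges overlapped. Marco and Stab2 were the lowest in 7 of the 8 libraries, the exception being ApoE-/- 2, where Marco was above Olr1.

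The genes whose values over the 8 libraries were most like those of a member, among 3762 others with 1 gene name and a mean of at least 5 FPKM, were sought for the 5 members with such a mean. They were Adipoq, Mtch2 and Cidec for Cd36 (Pearson's r of log2(FPKM + 1) 0.976 to 0.984), of which Adipoq encodes the fat hormone adiponectin and Cidec a lipid droplet protein of adipocytes. For Stab1 they were Lamp2, Tox4 and Mpp1 (r 0.98 to 0.99), for Msr1 Fam129b, Cd276 and C77080 (r 0.989 to 0.994), for Colec12 Rpn2, Glmp and Cd9 (r 0.976 to 0.98), and for Cd5l Il18bp, Abhd12 and Tnfrsf21 (r 0.969 to 0.974). Lamp2 is a major protein of the lysosomal membrane, where scavenged particles are broken down. With 8 libraries and this many genes, high values also arise from selection, and the libraries share their group differences.

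The upstream sequences of Cd5l, Olr1 and Stab1 are shown, a choice made after the values were seen. These are members of macrophages and activated vessel wall cells with low values in the libraries titled NPRC-/-ApoE-/- 2 and 3. Cd5l was lower still in NPRC-/-ApoE-/- 1 (29.0 FPKM) than in NPRC-/-ApoE-/- 2 (44.8 FPKM). Marco and Stab2 were also low in libraries 2 and 3 and are not shown. Msr1, Scarb1 and Colec12, for which no start site was available here, had their lowest values there too. RefSeq start sites of GRCm38.p6 were available here for 6 of the 10 members. Each line gives the 250 bases before the start site from 5′ to 3′ on the strand of the gene, at chr3:87357631-87357880 for Cd5l (plus strand), chr6:129507166-129507415 for Olr1 (minus strand) and chr14:31168642-31168891 for Stab1 (minus strand). Capitals mark matches, on either strand, to GAGGAA (the core bound by the myeloid factor PU.1), AGGTCA (the hexamer of nuclear receptors) and TGACTCA (the AP-1 site).
Cd5l: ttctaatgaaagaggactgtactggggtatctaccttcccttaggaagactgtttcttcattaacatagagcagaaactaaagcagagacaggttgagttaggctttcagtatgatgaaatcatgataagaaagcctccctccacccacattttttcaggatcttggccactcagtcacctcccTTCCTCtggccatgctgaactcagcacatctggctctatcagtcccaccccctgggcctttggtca
Olr1: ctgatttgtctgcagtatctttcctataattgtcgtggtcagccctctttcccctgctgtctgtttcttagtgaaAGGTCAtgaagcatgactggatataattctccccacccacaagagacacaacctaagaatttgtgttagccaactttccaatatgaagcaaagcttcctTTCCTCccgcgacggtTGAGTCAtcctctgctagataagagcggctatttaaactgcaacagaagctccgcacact
Stab1: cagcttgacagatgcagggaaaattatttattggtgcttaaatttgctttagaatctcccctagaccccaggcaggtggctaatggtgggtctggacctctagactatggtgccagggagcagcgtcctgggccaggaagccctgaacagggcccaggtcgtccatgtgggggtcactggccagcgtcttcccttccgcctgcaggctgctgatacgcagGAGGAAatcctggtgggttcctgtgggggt
GAGGAA or its complement was found 66 bases before the start of Cd5l (antisense), 76 before that of Olr1 (antisense) and 30 before that of Stab1 (sense), counted to the first base of the match. Of 32851 promoters of the same length, 7639 (23.3%) hold it. The Olr1 sequence also held AGGTCA, present in 4607 of these promoters, and TGACTCA, present in 1466. Of the sequences not shown, that of Marco held GAGGAA, and those of Cd36 and Stab2 held AGGTCA but not GAGGAA. The start site used for Cd36 lies inside the annotated gene. The bases after that site were not found in an annotated transcript of Cd36. A match describes letters only and is no measured binding site.

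Other scavenger receptors, several of the same classes as the members, were listed from the nomenclature of the family. They were not listed from their values, although earlier results of these data were known. Of the 15 genes in that list, 11 were tested. By title 3 were lower with an unadjusted p under 0.05, 0 were higher and 8 did not pass. Among all loci tested, 7.13% were lower and 6.51% higher at this threshold. The median log2 fold change of the 11 was −0.53. Mrc1, the mannose receptor of resident macrophages, had 9.37 to 11.98 FPKM across the ApoE-/- group against 5.71 to 7.48 FPKM across the NPRC-/-ApoE-/- group, without overlap. Its log2 fold change was −0.63 (standard error 0.12, unadjusted p = 0.000605, adjusted p = 0.203, edgeR), and its locus also carries the microRNA gene Mir511. Clec7a, the receptor dectin-1 for fungal glucans, which shares its locus with Clec1a, fell by 1.35 on the log2 scale (standard error 0.38, adjusted p = 0.26), from 6.25 to 11.2 FPKM to 1.93 to 5.94 FPKM without overlap. Cxcl16, a membrane chemokine that also binds oxidized LDL, fell by 1.16 on the log2 scale (standard error 0.49, adjusted p = 0.34), although its groups overlapped. Cd163, the haemoglobin scavenger receptor of resident macrophages, had a log2 fold change of 0.17 (standard error 0.17, adjusted p = 0.68), and Lrp1, the most abundant receptor of the list at 127 to 267 FPKM, had −0.53 (standard error 0.29, adjusted p = 0.45). Without the library titled ApoE-/- 5, 7 of the 11 passed. By genotype entry 0 of the 11 passed, and the log2 fold change was −0.17 for Mrc1, −0.07 for Clec7a and 0.18 for Cxcl16.

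Genes that act after uptake, with the other lipoprotein receptors and signalling partners, gave 20 tested loci, of which 9 were lower by title with an unadjusted p under 0.05, 0 were higher and 11 did not pass. Among all loci tested, 7.13% were lower and 6.51% higher at this threshold. The median log2 fold change of the list was −0.44, and 0 had an adjusted p under 0.05 in edgeR. The locus used for Fyn lay on the strand opposite to the gene. That of Nr1h3, which is among the 9, also carries Madd. Fabp5, a fatty acid carrier of macrophages, fell by 1.35 on the log2 scale (standard error 0.47, adjusted p = 0.31). The cholesterol exporter Abcg1 fell by 0.99, the lysosomal cholesterol transporters Npc2 and Npc1 by 0.81 and 0.57, the lysosomal acid lipase Lipa by 0.76, and Soat1, which esterifies cholesterol for storage, by 0.70. Lyn, a kinase that signals from Cd36, fell by 0.98 and Tlr6, a partner receptor of Cd36, by 0.97. Abca1 (−0.58), Fabp4 (0.08), Lpl (−0.40), Vldlr (0.36) and Pparg (0.38) did not pass. The count rested on few libraries, since 1 of the 20 passed without NPRC-/-ApoE-/- 2 and 1 without NPRC-/-ApoE-/- 3, 4 without ApoE-/- 4 and 5 without ApoE-/- 3. By genotype entry 0 of the 20 passed, and the 8 genes named as lower had log2 fold changes from −0.14 (Tlr6) to 0.01 (Fabp5). The macrophage and fibroblast marker levels given for Cd5l were lower by title too, and their part was not tested.

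**Figure D3:**
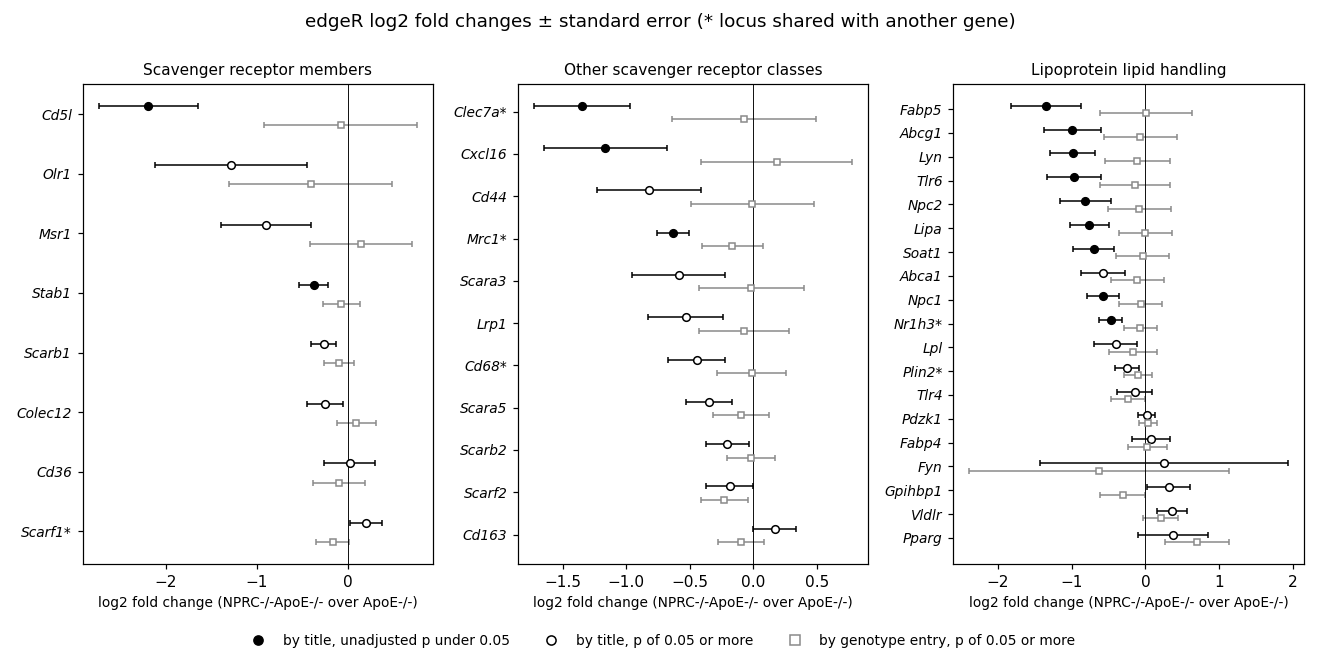
Log2 fold change (horizontal axis, NPRC-/-ApoE-/- over ApoE-/-) with its standard error from edgeR for tested genes of 3 lists, without a lipid handling gene that is not reported here, by title (circles, filled where the unadjusted p is under 0.05) and by genotype entry (squares). The filled circles, for 2 members, 3 other scavenger receptors and 9 lipid handling genes, all lie below 0, and no square is filled.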

How the data were processed

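Values of 8 aorta libraries were analysed. The authors trimmed the reads (cutadapt 1.9 and GRCm38 are named in the submitters' processing notes), used HISAT2 for mapping and StringTie for assembly, and deposited a whole-number count of each assembled locus without normalization. The authors also deposited FPKM values, scaled to transcript length and mapped fragments. How the counts were derived and whether they used strand are not given in the sources used here. The libraries were made with a strand-marking dUTP step.

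The members and gene lists were chosen with earlier results of these data known. Loci reaching 1 FPKM in 3 or more libraries (20506) entered the test of counts in edgeR 4.0.16 in R 4.3.3 (TMM normalization, quasi-likelihood test, Benjamini-Hochberg adjustment), which was also run on simulated counts. The biological coefficient of variation was 0.327. Total counts were 62969165 to 86693276, and the counts behind single values were lowest for Marco (0 to 291), Olr1 (57 to 1099) and Stab2 (103 to 577). Single genes and list means (log2 CPM, prior count of 2) were compared with two-sided exact permutation tests in scipy 1.17.1. A tested locus is called lower or higher at an unadjusted p under 0.05. Named genes were all 10 members, list genes that passed (up to 8 a list, by size) and the 3 genes most like each member with a mean of at least 5 FPKM. List genes named with values that did not pass, and the B cell gene, were chosen after their values were seen. Alternatives covered the label, the test (limma 3.58.1, DESeq2 1.42.0), the scaling, the filter, the replicate block and each library left out. Upstream sequences are from RefSeq. Values of 2 listed genes are not reported here, although the list counts and means include them.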

Additional observations from a re-analysis of the deposited data

Results flagged for a closer look

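Of 40 groups of 5 libraries examined for a library far from the others, 3 had one, where chance gives about 2. The level of Marco was 2.11 log2 CPM in ApoE-/- 2, against −5.26 log2 CPM (0 counts) in the other 4 libraries entered as ApoE-/-. The mean of the endothelial markers was 6.34 log2 CPM in ApoE-/- 2, the highest of the libraries titled ApoE-/-, where the next was 6.24. The mean of the brown fat markers was 4.30 log2 CPM in ApoE-/- 3, below the other 4 entered as ApoE-/-, where the next was 5.62, and Cd36 was also lowest in that library.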

How the results depend on the processing

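Grouped by genotype entry, 0 members, 0 other scavenger receptors and 0 lipid handling genes passed an unadjusted p of 0.05, and 0 members had an exact permutation p under 0.05 (2 by title, Cd5l and Stab2). The share of all loci with an exact permutation p under 0.05 was not computed. Log2 fold changes reversed to −0.10 for Cd36, 0.14 for Msr1, 0.092 for Colec12 and −0.17 for Scarf1. The cause was not tested. Without a filter on low values the median of the members was −0.64, as Marco and Stab2 then entered it.

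The replicate numbers of the titles did not pair the libraries, with correlations of the deviations of −0.31, −0.11 and 0.01 for numbers 1, 2 and 3. With the replicate block in libraries 1 to 3, 1 member and 4 lipid handling genes passed, and without the block in these 6 libraries 1 member and 9 lipid handling genes did. Leaving out 1 library at a time gave 1 to 4 members (4 without NPRC-/-ApoE-/- 1), 2 to 7 other scavenger receptors, 1 to 11 lipid handling genes, a member median of −0.42 to −0.27, and −0.17 to 0.19 for Cd36. Relative to the macrophage markers, a scale chosen after seeing the data, Stab1 reversed to 0.85. So did Msr1 (0.41), Scarb1 (0.96), Colec12 (1.00) and Stab2 (0.06), while Cd5l (−0.86), Olr1 (−0.28) and Marco (−0.73) stayed lower. The groups overlapped for each member on this scale, and the marker mean itself differed by −1.22 log2 units by title. Cd5l passed an unadjusted p of 0.05 under every other alternative with a test except the genotype entry and the relative scale. Of 149 alternative values of the tested members, 127 kept their direction and side of the threshold or moved within the spread, 10 lost a call, 3 gained one, 7 reversed and 2 moved. The 4 libraries with matching labels gave values without a test, since 1 of them was NPRC-/-ApoE-/-.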
